A study of Mus musculus with 22 samples.

Results

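Voltage-gated and potassium ion channel genes were followed in mouse striatum and white adipose tissue (WAT) after thyroid hormone (TH) was given. Members were taken by symbol, as genes whose names start with Kcn, with Cacn, with Hcn and a number, or with Scn, a number and the letter a or b. The rule took 143 genes of the striatum table, of which 114 had a mean normalised count above 10 over the 10 striatum libraries and are the members described here, out of 15827 striatum genes that passed the same limit. Kcng4 and Cacng1, at mean normalised counts of 10.0763 and 10.0784, were just inside this limit, whereas Cacna2d4 at 9.43 and Kcnj13 at 9.06 were just outside it. Of the 114 members, 65 also passed in WAT, where 17928 genes were tested. The 65 include genes that passed through the group in which they were high, so that counts over them are descriptions only.

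All mice were labelled wild-type C57BL/6J males aged 8 weeks, and none carried a transgene. Control animals had received propylthiouracil (PTU), a drug that blocks TH synthesis, for 2 weeks and gave 2 striatum and 4 WAT libraries. TH was given as 1 intraperitoneal injection of triiodothyronine and thyroxine. TH-treated mice were sampled 12 h and 24 h later for striatum and 6 h and 24 h later for WAT, with 4 libraries in each of these groups. The labels of the TH groups do not mention PTU. The study's overview of its datasets enters a dash under hypothyroidism for striatum and PTU in the food for WAT, although the striatum controls are labelled as PTU-treated. Whether the striatum animals that received TH had been made hypothyroid therefore cannot be settled from these entries. Nothing in the labels ties libraries to separate animals, and p-values therefore measure the spread between these libraries.

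Ion channels of these families set the resting potential, the threshold and the firing pattern of neurons. Inward rectifiers and two-pore-domain channels carry resting potassium currents, voltage-gated potassium channels repolarise the membrane, and sodium and calcium channels carry the depolarising currents. HCN channels pass a pacemaker current that opens on hyperpolarisation, and most of the gamma family, despite its calcium channel symbols, serves AMPA-type glutamate receptors as auxiliary subunits. TH acts mainly through nuclear receptors that bind AGGTCA elements in DNA, often as a pair of direct repeats spaced by 4 bases (DR4, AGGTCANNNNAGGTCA), and channel and ion transport genes are classical TH targets in the heart.

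Promoters of the 5 members called in striatum with all libraries are shown, with 250 bases before and 50 after the RefSeq start on build GRCm38.p6. Capitals mark AGGTCA on either strand, which reads TGACCT when it lies on the opposite one. Cacng8 (chr7:3393792-3394091, plus strand) holds 2 such elements. Kcnj10 (chr1:172340960-172341259, plus strand), Scn9a (chr2:66634913-66635212, minus strand), Kcnk1 (chr8:125994852-125995151, plus strand) and both starts of Cacng5 (chr11:107915006-107915305 and chr11:107911313-107911612, minus strand) hold none.
Cacng8: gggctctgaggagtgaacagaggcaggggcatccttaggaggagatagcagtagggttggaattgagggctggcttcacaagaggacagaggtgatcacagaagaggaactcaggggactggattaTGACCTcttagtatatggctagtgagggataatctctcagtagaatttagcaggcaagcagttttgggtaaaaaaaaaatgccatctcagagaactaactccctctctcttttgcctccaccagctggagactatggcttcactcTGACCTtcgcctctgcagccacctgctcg
Kcnj10: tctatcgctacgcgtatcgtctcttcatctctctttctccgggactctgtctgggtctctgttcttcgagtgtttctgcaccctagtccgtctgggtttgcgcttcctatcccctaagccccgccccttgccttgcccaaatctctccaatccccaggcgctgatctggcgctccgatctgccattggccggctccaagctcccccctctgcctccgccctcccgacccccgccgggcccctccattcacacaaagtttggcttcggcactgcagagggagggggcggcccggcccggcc
Scn9a: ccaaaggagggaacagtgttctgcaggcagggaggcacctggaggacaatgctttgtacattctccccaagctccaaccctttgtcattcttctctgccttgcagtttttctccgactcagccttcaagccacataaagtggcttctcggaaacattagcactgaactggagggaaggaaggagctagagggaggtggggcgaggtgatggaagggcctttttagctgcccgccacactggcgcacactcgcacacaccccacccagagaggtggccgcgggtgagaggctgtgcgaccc
Kcnk1: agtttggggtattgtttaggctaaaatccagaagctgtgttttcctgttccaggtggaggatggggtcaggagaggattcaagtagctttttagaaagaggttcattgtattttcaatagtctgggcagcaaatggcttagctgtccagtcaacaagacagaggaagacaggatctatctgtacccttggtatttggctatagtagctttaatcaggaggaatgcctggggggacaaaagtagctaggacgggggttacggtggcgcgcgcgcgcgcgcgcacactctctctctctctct
Cacng5, upstream start: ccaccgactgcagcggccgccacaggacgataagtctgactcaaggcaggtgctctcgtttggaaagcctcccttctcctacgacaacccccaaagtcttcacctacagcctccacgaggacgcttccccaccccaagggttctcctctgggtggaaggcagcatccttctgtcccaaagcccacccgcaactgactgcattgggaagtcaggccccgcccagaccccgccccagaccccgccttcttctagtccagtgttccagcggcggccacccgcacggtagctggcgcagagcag
Cacng5, downstream start: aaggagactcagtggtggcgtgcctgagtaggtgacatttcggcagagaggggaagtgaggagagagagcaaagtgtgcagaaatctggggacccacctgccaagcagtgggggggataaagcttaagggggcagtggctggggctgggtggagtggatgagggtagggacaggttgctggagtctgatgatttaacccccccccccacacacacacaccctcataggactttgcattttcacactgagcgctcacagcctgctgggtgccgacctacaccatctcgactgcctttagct
The RefSeq start of Cacng8 lies inside the gene as GENCODE places it (chr7:3390683-3415648). RefSeq gave 140 promoters for 104 of the genes that the symbol rule takes, of which 11 (7.857%) held at least 1 element, against 5340 of all 32851 promoters (16.26%). The other genes with an element were Cacna1f, Hcn2, Kcna10, Kcnf1, Kcnh1, Kcnip4, Kcnj16, Kcnk10, Scn1a and Scn8a. The DR4 was in 0 channel promoters and in 5 of all promoters (0.0152%). These matches describe letters in a short window, and distal regions were not searched.

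Striatum libraries held about 8056440 to 10163800 counts and WAT libraries about 17298700 to 26963400. The TH target genes Hr and Klf9 were higher at every time in both tissues, with log2 changes of Hr between 2.49 and 4.19 and of Klf9 between 0.51 and 1.94. One striatum library, TH 24 h replicate 2, stood apart, since it held 12586 normalised counts of the cortical glutamate transporter gene Slc17a7 (1814 to 9196 in the other 9) and 31.4 of the striatal dopamine receptor gene Drd2 (832 to 2151 in the others). Summed over 12 cortical markers, PTU libraries held 21106 to 30367 counts, the 12 h libraries 35260 to 43797 and the 24 h libraries 27606 to 74495. The 12 striatal projection neuron markers summed to 40061 to 58195, 23125 to 37630 and 3353 to 60664 counts in the same order. Replicate 4 at 24 h also shifted, with 44414 counts of the cortical and 28299 of the projection neuron markers, beyond both PTU libraries. The marker content of the dissection thus moved with the 12 h group and with replicates 2 and 4 at 24 h. Leaving out replicate 2, as is done for most striatum results, does not remove the shift from the 24 h group. In addition, Xist was at 22070 to 33693 counts in PTU replicate 6, TH 12 h replicate 1 and all 4 TH 24 h libraries and at most at 17.8 in the other 4, although every label reads male. Ddx3y, a further marker of library sex, went the opposite way. It was at most at 1.19 counts in the libraries with high Xist and at 186 to 254 in the other 4.

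The 114 members took 0.852% to 0.983% of striatum counts. By level per kb of exon, the leading members were genes for auxiliary subunits rather than pores. Over the 10 libraries, normalised counts per kb were 912 ± 224 (SD, n = 10) for Cacng4, 796 ± 185 for Kcnip2, 648 ± 95.03 for Cacng3, 587 ± 216 for Cacng7 and 494 ± 50.4 for Scn3b. Cacng3, Cacng4 and Cacng7 belong to the AMPA receptor auxiliary subunits, Kcnip2 encodes a calcium-binding partner of A-type potassium channels, and Scn3b a sodium channel beta subunit. Among pore-forming members, the two-pore channel Kcnk2 (414 ± 128), the astrocytic rectifier Kcnj10 (369.8 ± 116), the A-type channel Kcnd2 (365 ± 79.2) and the M-current channel Kcnq3 (329 ± 69.3) had the highest levels per kb, and their ranges overlapped. The most abundant sodium channel pore was Scn8a (184 ± 18.3), the most abundant calcium channel pore Cacna1e (155 ± 15.9) and the most abundant HCN gene Hcn2 (120.2 ± 15.8). The lowest of all members was Scn7a at 2.08 counts per kb.

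At 12 h after TH, 4 of 114 members (3.51%) passed the test against PTU (edgeR quasi-likelihood test, adjusted p under 0.05). Kcnj10 and the gamma genes Cacng5 and Cacng8 were higher and the sodium channel gene Scn9a was lower. Changes are given as log2 estimates ± their standard errors. Over all genes tested, 0.96% passed, 0.733% higher and 0.227% lower. Without TH 24 h replicate 2, which enters this comparison only through the normalisation and the shared estimate of the spread, 25 members passed (21.9%), 19 higher and 6 lower, where the background was 7.95%, with 4.74% higher and 3.22% lower. In these bulk libraries, fewer cells of a type and less RNA per cell cannot be told apart.

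Estimates leaned upwards in most families. Of the 114 members, 80 (70.2%) had a positive log2 change at 12 h against 51% of all genes, and the median change was 0.305 against 0.0076. Without replicate 2 at 24 h these were 77 members, 67.5% against 50.3%, with medians of 0.301 and 0.0024. Family medians at 12 h were 0.758 for the 4 HCN genes, 0.530 for the 9 two-pore-domain channels, 0.495 for the 7 gamma genes, 0.377 for the 11 inward rectifiers, 0.349 for the 11 potassium channel accessory subunits, 0.341 for the 37 voltage-gated potassium channel alpha subunits and 0.325 for the 8 calcium channel pores. Calcium- and sodium-activated potassium channels had a median of 0.213, and calcium channel accessory subunits one of 0.0022. Sodium channels were the exception, with medians of -0.17 for the 7 alpha and -0.05 for the 4 beta subunits. All 4 HCN genes and 29 of 37 voltage-gated potassium channel genes had a positive estimate, against 1 of 7 sodium channel alpha genes. The PTU and 12 h libraries did not overlap for 57 of the 114 members, where 36.4% of all genes did not overlap.

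**Figure D1:**
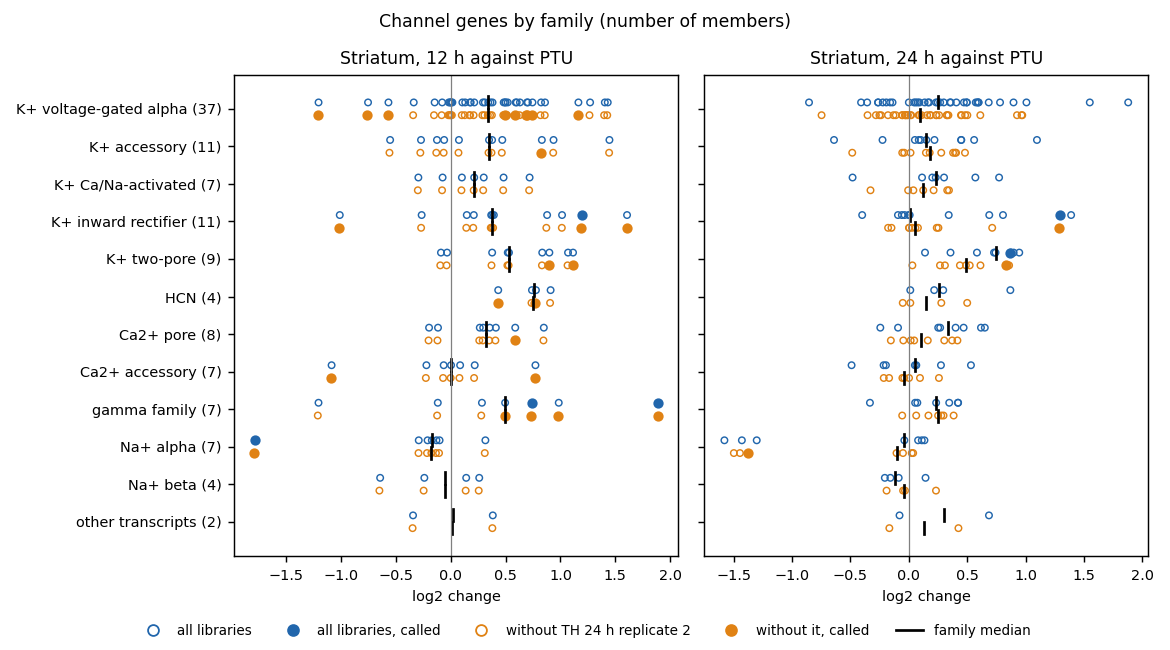
Log2 change of each of the 114 channel genes against PTU in striatum at 12 h and 24 h, 1 point a gene, grouped by family, with all libraries (blue) and without TH 24 h replicate 2 (orange), filled where called, with family medians as black lines. HCN genes lay above 0 at 12 h without exception, while sodium channel alpha genes had a median of -0.17.

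Kcnj10 encodes the inward rectifier with which astrocytes and oligodendrocytes take up extracellular potassium, and lies at chr1:172341210-172374085 (GRCm38). It had 761 and 1147 normalised counts in PTU replicates 3 and 6, 2505, 1655, 1975 and 2593 in the 12 h replicates 1 to 4 and 2174, 2269, 2485 and 2433 in the 24 h replicates 1 to 4. Every TH library was above both PTU libraries, and replicate 2 at 24 h stood among its group. The log2 change was 1.19 ± 0.21 (adjusted p = 0.0286) at 12 h and 1.29 ± 0.21 (adjusted p = 0.0346) at 24 h. In the absence of replicate 2, adjusted p was 0.0108 and 0.0184. The 5 astrocyte markers summed to 40211 to 45898 counts in PTU, 37756 to 43278 at 12 h and 53076 to 67752 at 24 h, and none of them was called at either time. The 5 oligodendrocyte markers summed to 25932 to 38350, 18866 to 26359 and 15352 to 34892 counts. The astrocyte sum was mostly Slc1a2, a glutamate transporter gene, and the other 4 astrocyte markers summed to 3740.1 to 3783 counts in PTU, 3334 to 4472 at 12 h and 3348 to 4763 at 24 h. Without Slc1a2 the astrocyte sums of both TH groups thus overlapped those of PTU.

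Of the 11 inward rectifiers, 9 had a positive estimate at 12 h, and the calls without replicate 2 were Kcnj10, Kcnj6 and, downwards, Kcnj2. Kcnj6, a subunit of the rectifiers gated by G proteins, had 95.4 and 37.6 counts in PTU, 164, 199, 244 and 200.2 at 12 h and 73.3, 369, 65.5 and 188 at 24 h. All 12 h values lay above PTU, but at 24 h replicate 2 was by far the highest library and replicates 1 and 3 were within the PTU range. Its log2 change at 12 h was 1.61 ± 0.65 (adjusted p = 0.204), with an adjusted p of 0.0456 without replicate 2. The G-protein-gated partners Kcnj3 (1.01, adjusted p = 0.273) and Kcnj9 (0.37, adjusted p = 0.720) did not pass with either set of libraries. Kcnj11, the pore of the ATP-sensitive potassium channel, had 214 to 268 counts at 12 h against 183 and 177 in PTU (0.38, adjusted p = 0.142).

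Gamma family genes gave 2 of the 4 member calls at 12 h, where 0.96% of all genes passed. Without replicate 2 at 24 h, 4 of the 7 genes of this family were called, where 7.95% of all genes passed. Cacng5 (chr11:107874605-107915055), an AMPA receptor auxiliary subunit, had 213 and 189.9 counts in PTU, 432, 710.5, 589 and 1252 at 12 h and 269.8, 196, 221 and 258 at 24 h. The 12 h libraries were all above the rest, replicate 4 most of all, and the 24 h libraries were back in or near the PTU range. The log2 change was 1.89 ± 0.36 (adjusted p = 0.0416) at 12 h and 0.23 ± 0.35 (adjusted p = 0.861) at 24 h.

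Cacng8, another AMPA receptor auxiliary subunit whose promoter with 2 AGGTCA elements is printed above, had 152 and 182 counts in PTU, 261, 334, 275 and 245.8 at 12 h and 171, 173, 170.3 and 189 at 24 h. It too was highest in the 4 libraries of 12 h, with no overlap with the other 6. The log2 change was 0.74 ± 0.14 (adjusted p = 0.0395) at 12 h and 0.07 ± 0.14 (adjusted p = 0.899) at 24 h. Cacng7, of the same subunit group, had 997 and 914 counts in PTU, 1562, 1741, 1654 and 2600.4 at 12 h and 929.6, 1601, 956 and 1369 at 24 h, so that replicates 2 and 4 at 24 h reached or neared the 12 h range. Its change at 12 h was 0.98 ± 0.26 (adjusted p = 0.0853), and 0.0262 was the adjusted p without replicate 2. Cacng2, which encodes stargazin, had 949 and 947 counts in PTU and 1355, 1406, 1263 and 1321 at 12 h (0.50 ± 0.15, adjusted p = 0.105, and 0.0179 without replicate 2). The remaining 3 genes of the family did not pass, and Cacng1, a muscle calcium channel subunit near the count limit, had an estimate of -1.21 ± 0.48 (adjusted p = 0.198).

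HCN genes were all higher on average at 12 h, though none passed with all libraries. Hcn2, whose promoter also holds 2 elements, had 299.7 and 324 counts in PTU, 451, 421, 424 and 389 at 12 h and 342, 380.0, 437 and 373 at 24 h. Every TH library was above both PTU libraries. The change was 0.43 ± 0.11 (adjusted p = 0.0842) at 12 h and 0.29 ± 0.11 (adjusted p = 0.427) at 24 h, and the 12 h call was reached without replicate 2 (adjusted p = 0.0406). Hcn3 had 211 and 180.0 counts in PTU, 293, 349, 352 and 344 at 12 h and 160.3, 337, 183 and 228 at 24 h. Apart from replicate 2, its 24 h libraries ranged from 160.3 to 228, around the PTU values, and the 12 h change of 0.78 ± 0.25 (adjusted p = 0.123) had an adjusted p of 0.0157 without that library. Hcn4 (0.91, adjusted p = 0.107) did not pass in either fit.

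**Figure D2:**
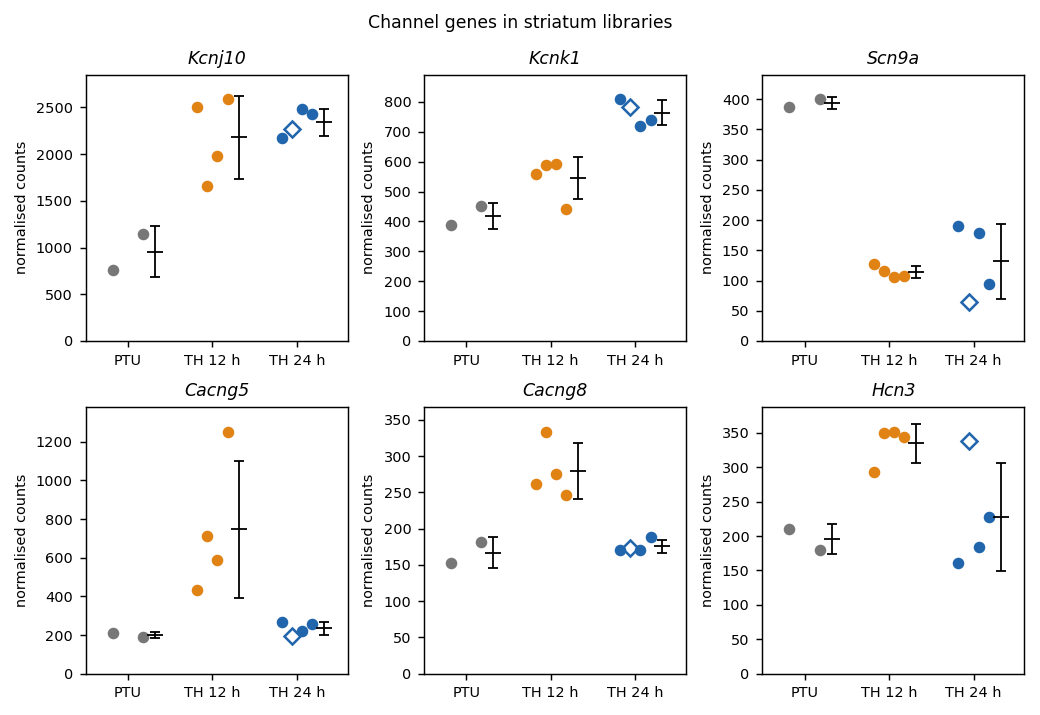
Normalised counts of 6 channel genes in each striatum library by group, with the group mean ± SD as a bar and TH 24 h replicate 2 as an open diamond. Kcnj10 and Kcnk1 at 24 h lay above both PTU libraries, Scn9a lay below them at both times, and Cacng5, Cacng8 and Hcn3 were high at 12 h.

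Two-pore-domain channels, which carry background potassium current, had no call at 12 h with all libraries. They had 1 at 24 h, where 0.348% of all genes passed. Kcnk1 (chr8:125995170-126030685), a weakly rectifying background channel, had 389 and 450.1 counts in PTU, 559, 588, 592 and 441 at 12 h and 810.4, 784, 719 and 739 at 24 h. The 24 h libraries, replicate 2 included, were above all others, whereas replicate 4 at 12 h lay between the PTU libraries. The change was 0.38 ± 0.13 (adjusted p = 0.145) at 12 h and 0.86 ± 0.13 (adjusted p = 0.0260) at 24 h, where the adjusted p without replicate 2 was 0.0184. Gm45875 overlaps Kcnk1 exons on the other strand, and the strand setting of the counting is not given in the sources used here, so the reads of the pair cannot be told apart.

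The acid-sensitive channels Kcnk3 and Kcnk9 had 12 h changes of 1.11 and 0.90 (adjusted p = 0.145 and 0.148), and passed without replicate 2 (adjusted p = 0.0392 and 0.0286). Kcnk9 had 1216 and 827 counts in PTU, 1650.0, 1995, 2244 and 1725 at 12 h and 1288, 2643, 1127 and 1773 at 24 h, so that replicate 2 was the highest library and 24 h replicates 1 and 3 were in or next to the PTU range. The 9 two-pore genes had a median change of 0.742 at 24 h and all 9 estimates were positive. Without replicate 2, in which 5 of the 9 were highest of all libraries, the median was 0.488 and 9 of 9 remained positive. Kcnk1 was then the single call, where 0.72% of all genes passed.

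Voltage-gated potassium channel alpha subunits, the largest family, gave 0 calls at 12 h with edgeR on all libraries. At an unadjusted p under 0.05 there were 12 of 37, a count given without the share of all genes. Without replicate 2 there were 9 calls, 6 higher and 3 lower, where 7.95% of all genes passed, 4.74% higher and 3.22% lower. The 3 that fell were Kcng3, a silent subunit that modifies other channels, Kcnq5, an M-current subunit, and Kcna4, an A-type channel. Kcng3 had 94.3 and 81.1 counts in PTU, 43.4, 45.02, 30.8 and 32.8 at 12 h and 53.8, 34.8, 65.5 and 40.1 at 24 h. All TH libraries were below PTU, and the 12 h change was -1.21 ± 0.25 (adjusted p = 0.0508), with an adjusted p of 0.0127 without replicate 2. Kcnq5 had 1985 and 2235 counts in PTU, 1505, 1433, 1409 and 1344 at 12 h and 1903, 1995, 1988 and 1496 at 24 h (-0.57 ± 0.12, adjusted p = 0.0568, and 0.0165 without replicate 2). It was low at 12 h in all 4 libraries and back in the PTU range in 2 of the 4 libraries of 24 h.

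The 6 that rose without replicate 2 were Kcna3, Kcna6, Kcnc1, Kcnc4, Kcnf1 and Kcng1, with log2 changes from 0.49 for Kcnf1 to 1.16 for Kcnc4. Kcna3, a delayed rectifier, had 83.8 and 91.99 counts in PTU, 156, 163, 116 and 155 at 12 h and 91.9, 86.3, 91.7 and 104 at 24 h, high at 12 h alone (0.74 ± 0.16, adjusted p = 0.0589, and 0.0258 without replicate 2). Kcnc1 and Kcnc4 encode channels of fast-spiking neurons. Kcnc1 had 498 and 518 counts in PTU and 779.7, 757, 686 and 1085 at 12 h, with no overlap (0.70, adjusted p = 0.0736, and 0.0294 without replicate 2). Kcnc4 had 242 and 133 counts in PTU, 414, 435, 505 and 321 at 12 h and 210.2, 604, 196 and 382 at 24 h, the highest value again being that of replicate 2. The 4 interneuron markers, among them Pvalb, summed to 6074 to 7562 counts in PTU and 5832 to 7329.7 at 12 h. Npy was the highest of the 4. Without Npy the sums were 2585 and 3283 counts in PTU and 3899, 3844, 3735 and 2626 in 12 h replicates 1 to 4. The part of interneuron content in the Kcnc1 and Kcnc4 changes was not tested.

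Potassium channel accessory subunits had 0 calls at 12 h with edgeR on all libraries. At an unadjusted p under 0.05 there were 4 of 11, a count given without the share of all genes. Without replicate 2 there was 1 call, where 7.95% of all genes passed. This was Kcnip1, a partner of A-type channels (0.83, adjusted p = 0.0476). It had 301 and 281 counts in PTU and 581, 491, 472 and 524 at 12 h, with no overlap. Kcnab3, a cytoplasmic beta subunit, had 33.5 and 29.7 counts in PTU and 46.3, 63.6, 64.4 and 170.2 at 12 h, where replicate 4 was far above the other 3 and the estimate was 1.45 ± 0.48 (adjusted p = 0.136). The gene Kcnab3os lies on the other strand of Kcnab3 and shares exonic sequence with it. The activated potassium channels had no call in either set of libraries, and their lowest p at 12 h was that of Kcnn1, a small-conductance channel gated by calcium (0.72, adjusted p = 0.219).

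Calcium channel genes held no call at 12 h with all libraries and 3 without replicate 2, where 7.95% of all genes passed. Cacna1i, a T-type pore, had 312 and 296 counts in PTU and 405, 449, 445 and 528 at 12 h (0.59 ± 0.23, adjusted p = 0.190, and 0.0356 without replicate 2). Cacnb3, a cytoplasmic beta subunit, had 639 and 499 counts in PTU, 804, 1059, 1029.7 and 991 at 12 h and 603, 1229, 607 and 851 at 24 h, so that both replicate 2 and replicate 4 at 24 h were above PTU (0.77 ± 0.27, adjusted p = 0.1497, and 0.0254 without replicate 2). Cacna2d3, an alpha2delta subunit, went the other way, with 1301 and 1732 counts in PTU, 905, 658, 639 and 654 at 12 h and 1553, 341, 1529.9 and 893 at 24 h. The 12 h libraries were all below PTU and replicate 2 at 24 h was the lowest of the 10 (-1.09 ± 0.43, adjusted p = 0.198, and 0.0162 without replicate 2).

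Scn9a (chr2:66480080-66634962), a sodium channel best known from sensory and sympathetic neurons, was the one member that fell at 12 h with all libraries. It had 387 and 401 counts in PTU, 127, 116, 105 and 107 at 12 h and 189.6, 63.9, 179 and 94.3 at 24 h. All 8 TH libraries were below PTU by a wide margin, and replicate 2 at 24 h was the lowest. The change was -1.79 ± 0.31 (adjusted p = 0.0307) at 12 h and -1.58 ± 0.32 (adjusted p = 0.0729) at 24 h, and without replicate 2 these had adjusted p-values of 0.00287 and 0.0159, so that the 24 h decrease then passed. Gm13629 overlaps Scn9a exons on the other strand. The abundant neuronal pores Scn2a (-0.13, adjusted p = 0.703), Scn8a (-0.10, adjusted p = 0.636) and Scn1a (-0.17, adjusted p = 0.625) did not pass, nor did any beta subunit.

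At 24 h, the 2 members called with all libraries were Kcnk1 and Kcnj10 (1.75% of the 114, both higher), where 0.348% of all genes passed, 0.316% higher and 0.0316% lower. Without replicate 2, Scn9a joined them, giving 3 calls (2.63%) against a background of 0.72%, with 0.632% higher and 0.0885% lower. Of the 114 members, 82 (71.9%) had a positive estimate against 53.1% of all genes, and the median change was 0.218 against 0.016. Without replicate 2 these were 75 members (65.8% against 48.2%) and 0.087 against -0.0081. The lean at 24 h rested in part on that library, as the median of the voltage-gated potassium channel alpha subunits was 0.247 with it and 0.0911 without it, and that of the calcium channel pores 0.334 and 0.104. Groups did not overlap for 21 of the 114 members, where 18.2% of all genes did not overlap. Without replicate 4 at 24 h, 0 members were called (edgeR), where 0.0569% of all genes passed. At an unadjusted p under 0.05 there were 17 members, a count given without the share of all genes. The 12 h and 24 h comparisons share both PTU libraries.

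The striatum calls rested on few libraries. Of the 10 fits that each left out 1 library, Kcnj10 was called in 4 at 12 h and in 4 at 24 h, Scn9a in 4, Cacng5 in 3 and Cacng8 in 1 at 12 h, and Kcnk1 in 4 at 24 h. When either PTU library was left out, none of these calls remained, with adjusted p-values for Kcnj10 at 12 h of 0.306 without replicate 3 and 0.130 without replicate 6. With a term for Xist-positive libraries, Kcnj10 stayed called at 12 h (adjusted p = 0.0311) while Scn9a, Cacng8, Cacng5 and both 24 h calls did not pass. With the ratio of cortical to striatal markers as a term, all 4 calls at 12 h and both at 24 h passed, the adjusted p of Kcnj10 being 0.00358 and 0.00223.

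Between the times, no member differed with all libraries (edgeR), and 0% of all genes passed, 0% in either direction. At an unadjusted p under 0.05 there were 23 members, a count given without the share of all genes. DESeq2 gave 7 calls, where it called 1.65% of all genes. Without replicate 2, 4 members were lower at 24 h than at 12 h (3.51%), where 0.493% of all genes passed, 0.209% higher and 0.284% lower. Among them were Hcn3 (-0.82, adjusted p = 0.0369), Cacng8 (-0.67, adjusted p = 0.0482) and Cacng5 (-1.59, adjusted p = 0.0482). For these genes the 12 h libraries were above PTU and the 24 h libraries in or near the PTU range. Over all members, 38 of 114 (33.3%) then had a positive estimate against 48.5% of all genes. Every 24 h library but only replicate 1 at 12 h was Xist-positive, so time and Xist status largely coincide in this comparison. The part of Xist status in the lower 24 h counts was not tested without replicate 2.

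TH 24 h replicate 2 was the highest of the 10 striatum libraries for 47 members and the lowest for 26, together 73 of 114, where 19.8% of all genes were highest and 19.3% lowest in it. Voltage-gated potassium channel alpha subunits were highest there in 17 of 37 cases and lowest in 7, two-pore-domain channels in 5 and 1 of 9, and potassium channel accessory subunits in 3 and 4 of 11. The 3 members furthest below and the 3 furthest above the other 24 h libraries, chosen after their values were seen, were Scn4b, Kcna5 and Kcnab1, and Kcng4, Kcnk4 and Kcnmb2. Scn4b, a sodium channel beta subunit known from striatal projection neurons, had 11.2 counts in replicate 2 against 2393, 2587 and 1322 in the other 24 h libraries, 966 to 1458 at 12 h and 1354 and 2168 in PTU. Kcna5, a delayed rectifier, had 14.6 against 179, 204 and 124, and Kcnab1 414 against 3258, 2917 and 1539.9. In the other direction, the silent subunit Kcng4 had 33.6 against 1.96, 3.57 and 15.05, the two-pore channel Kcnk4 202 against 26.4, 29.8 and 88.3, and Kcnmb2, a beta subunit of large-conductance channels, 54.9 against 18.6, 11.9 and 16.1. Kcng4, at a mean of 10.0763, was inside the count limit only through replicate 2, so its place here is a description only. The library's high cortical and low projection neuron markers stood beside these deviations, and their part in them was not tested. Of the 19 members that were higher at 12 h without it, 13 (68.4%) also deviated upwards in replicate 2 from the other 24 h libraries, and of the 6 that were lower, 5 (83.3%) deviated downwards. Among all genes called in the same way, 75.1% and 82.9% did so.

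**Figure D3:**
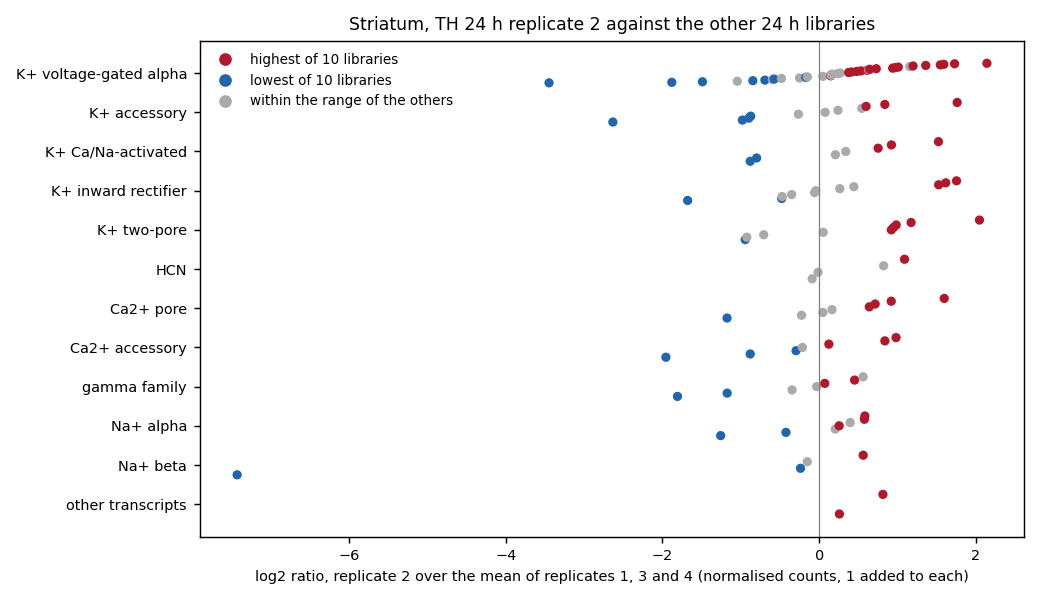
Log2 ratio of TH 24 h replicate 2 to the mean of the other 3 striatum libraries of 24 h for each channel gene, by family, with genes highest of all 10 libraries in red, lowest in blue and the others in grey (1 added to each normalised count). Scn4b and Kcna5 were the lowest points, and voltage-gated potassium channel alpha subunits lay on both sides of 0.

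Channels known from striatal projection neurons were described as a list of 12, and none was called at either time with all libraries. The strong inward rectifier Kcnj2 had 378 and 512 counts in PTU and 285, 210.4, 161 and 227 at 12 h (-1.01, adjusted p = 0.199, and 0.0298 without replicate 2), whereas its relative Kcnj4 had 351 and 324 in PTU and 324, 373, 391 and 407 at 12 h (0.15, adjusted p = 0.641). For the A-type current, Kcna4 had 464 and 612 counts in PTU and 353, 298, 307 and 319 at 12 h (-0.75, adjusted p = 0.269, and 0.0451 without replicate 2). Its relatives and partners Kcnd2 (-0.34), Kcnd3 (0.31), Kcnip2 (-0.13) and Kcnab1 (-0.55) had 12 h log2 changes with adjusted p-values from 0.336 to 0.839. Scn4b (-0.64), the large-conductance channel Kcnma1 (0.10), Kcnh4 (0.0049) and the L-type pores Cacna1c (0.30) and Cacna1d (0.41) did not pass either, with adjusted p-values from 0.226 to 0.996. The sums of projection neuron markers at 12 h were below both PTU libraries, and their part in the lower Kcnj2 and Kcna4 counts was not tested.

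Channels known as TH-responsive in heart were another list, of which 6 of 7 passed the count limit in striatum. With all libraries, 0 of these 6 were called at 12 h or 24 h, where 0.96% and 0.348% of all genes passed. Without replicate 2, Hcn2 was higher and Kcna4 lower at 12 h, where 7.95% of all genes passed. In WAT, 3 of the 7 were tested, and Kcna5 at 6 h and Hcn2 at 24 h were higher than in PTU. Of all WAT genes, 7.23% passed at 6 h and 17.1% at 24 h.

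WAT is a tissue of adipocytes with vessels, nerves and stromal cells, and the members took 0.0370% to 0.0490% of its counts. By normalised counts per kb, high levels among them were those of Kcnk3 (256 ± 78.1, SD, n = 12) and Scn7a (236 ± 118). At 6 h, 7 of the 65 members tested were called (10.8%), 4 higher and 3 lower, where 7.23% of all genes passed, 4.18% higher and 3.05% lower. Groups did not overlap for 10 of the 65, where 13.9% of all genes did not overlap. At 24 h, 14 were called (21.5%), 5 higher and 9 lower, against 17.1% of all genes, 7.45% higher and 9.62% lower, and 15 of the 65 did not overlap with PTU, where 19.3% of all genes did not. These shares were near the background.

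Sodium channel alpha subunits were among the WAT calls at both times, with Scn7a and Scn2a lower than in PTU. Scn7a (chr2:66673425-66784914), an atypical channel that senses extracellular sodium rather than voltage, had 2179.8, 3370.1, 2237 and 2779 counts in PTU replicates 1 to 4, 1687, 1808, 1754 and 1978 at 6 h and 739, 693, 686 and 854 at 24 h. The groups were ordered with no overlap, PTU above 6 h above 24 h. The log2 change was -0.55 ± 0.13 (adjusted p = 0.0287) at 6 h, -1.83 ± 0.14 (adjusted p = 9.17e-06) at 24 h, and -1.28 ± 0.14 (adjusted p = 0.000257) between the times. Scn2a, listed under an older symbol in this table, had 28.4 ± 10.2 counts (SD, n = 4) in PTU, 10.8 ± 1.22 at 6 h and 12.6 ± 3.87 at 24 h (-1.39, adjusted p = 0.0182 at 6 h, and -1.17, adjusted p = 0.0200 at 24 h), and its PTU and 24 h libraries overlapped.

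Potassium channels moved in both directions in WAT. Kcnk2 (chr1:189207930-189402273), a mechanosensitive two-pore channel, had 222, 661, 402 and 417 counts in PTU, 254, 243, 253 and 258 at 6 h and 77.2, 72.7, 119.9 and 81.9 at 24 h. All 24 h libraries were below the others, and PTU replicate 1 lay below the 6 h range (-2.27 ± 0.27, adjusted p = 0.000198 at 24 h). A430027H14Rik overlaps Kcnk2 exons on the other strand. Kcnn3 (chr3:89520164-89675132), a small-conductance channel gated by calcium, had 26.9, 20.4, 15.3 and 20.9 counts in PTU, 10.1, 11.3, 9.64 and 6.57 at 6 h and 2.89, 5.82, 6.37 and 4.43 at 24 h, with no overlap between the 3 groups (-1.15 ± 0.28, adjusted p = 0.0291 at 6 h, and -2.07 ± 0.31, adjusted p = 0.000859 at 24 h).

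Kcna1 (chr6:126640397-126646384), a low-threshold delayed rectifier, was higher at both times, with 13.4, 17.96, 12.6 and 18.4 counts in PTU, 25.7, 48.3, 57.8 and 33.7 at 6 h and 31.8, 47.5, 36.1 and 36.5 at 24 h (1.41 ± 0.27, adjusted p = 0.00950 at 6 h, and 1.29 ± 0.28, adjusted p = 0.00783 at 24 h). Its relative Kcna5 (chr6:126532551-126535412), known from heart and vessels, was called at 6 h and not at 24 h, with 133, 147, 117 and 112 counts in PTU, 235, 149.6, 206 and 247 at 6 h and 132, 104, 96.6 and 99.6 at 24 h (0.72, adjusted p = 0.0252 at 6 h, and -0.95, adjusted p = 0.00727 between 24 h and 6 h). Kcng4 (chr8:119623854-119635680), a silent modifier subunit, was called at 24 h and not at 6 h, with 21.1, 15.6, 15.3 and 29.5 counts in PTU, 8.95, 11.3, 19.3 and 23.8 at 6 h and 127, 49.5, 59.4 and 75.3 at 24 h (1.94 ± 0.37, adjusted p = 0.00405 against PTU, and 2.28 ± 0.37, adjusted p = 0.00463 against 6 h). All 4 libraries of 24 h were above the rest for Kcng4, replicate 1 most of all.

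The other potassium channel calls of 24 h were lower. Kcnh4 and Kcnma1, like Kcnn3, had few counts, and the groups of Kcne1l overlapped. Kcnn3 and Kcnh4 were inside the count limit only through their PTU libraries, where they were high, so that their decreases are descriptions only. Kcnh4 had 14.97 ± 2.93 counts in PTU and 3.28 ± 3.26 at 24 h (-2.15, adjusted p = 0.0203), and Kcnma1 24.9 ± 11.6 and 8.24 ± 4.36 (-1.56, adjusted p = 0.0325). The accessory subunit Kcne1l had 4.8, 113, 129 and 72.6 counts in PTU and 17.4, 18.4, 14.9 and 19.9 at 24 h (-2.17, adjusted p = 0.0302), so that PTU replicate 1 was the lowest of the 8. Kcnq1ot1, an imprinted noncoding RNA that runs through Kcnq1 on the other strand and is no channel, had 266 ± 55.9 and 174 ± 25.5 counts (-0.61, adjusted p = 0.0211). The pacemaker gene Hcn2 was higher, with 14.9 ± 7.1 and 30.8 ± 3.27 counts (1.02, adjusted p = 0.0440).

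Calcium channel genes in WAT gave 1 call at 6 h and 2 at 24 h, where 7.23% and 17.1% of all genes passed. Cacna1c (chr6:118587240-119196418), the L-type pore of heart and smooth muscle, had 74.9, 77.8, 73.99 and 56.6 counts in PTU, 149.9, 163, 124 and 142 at 6 h and 118, 126, 116 and 114 at 24 h. Every TH library was above every PTU library (1.03 ± 0.13, adjusted p = 0.000736 at 6 h, and 0.74 ± 0.13, adjusted p = 0.00306 at 24 h). Cacng7 (chr7:3332955-3368221) had 242, 193, 219 and 171 counts in PTU, 205, 216, 239.9 and 232 at 6 h and 91.6, 78.6, 106 and 104 at 24 h, with the 24 h libraries below all others (-1.12 ± 0.14, adjusted p = 0.000214 against PTU, and -1.23 ± 0.14, adjusted p = 0.000311 against 6 h).

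**Figure D4:**
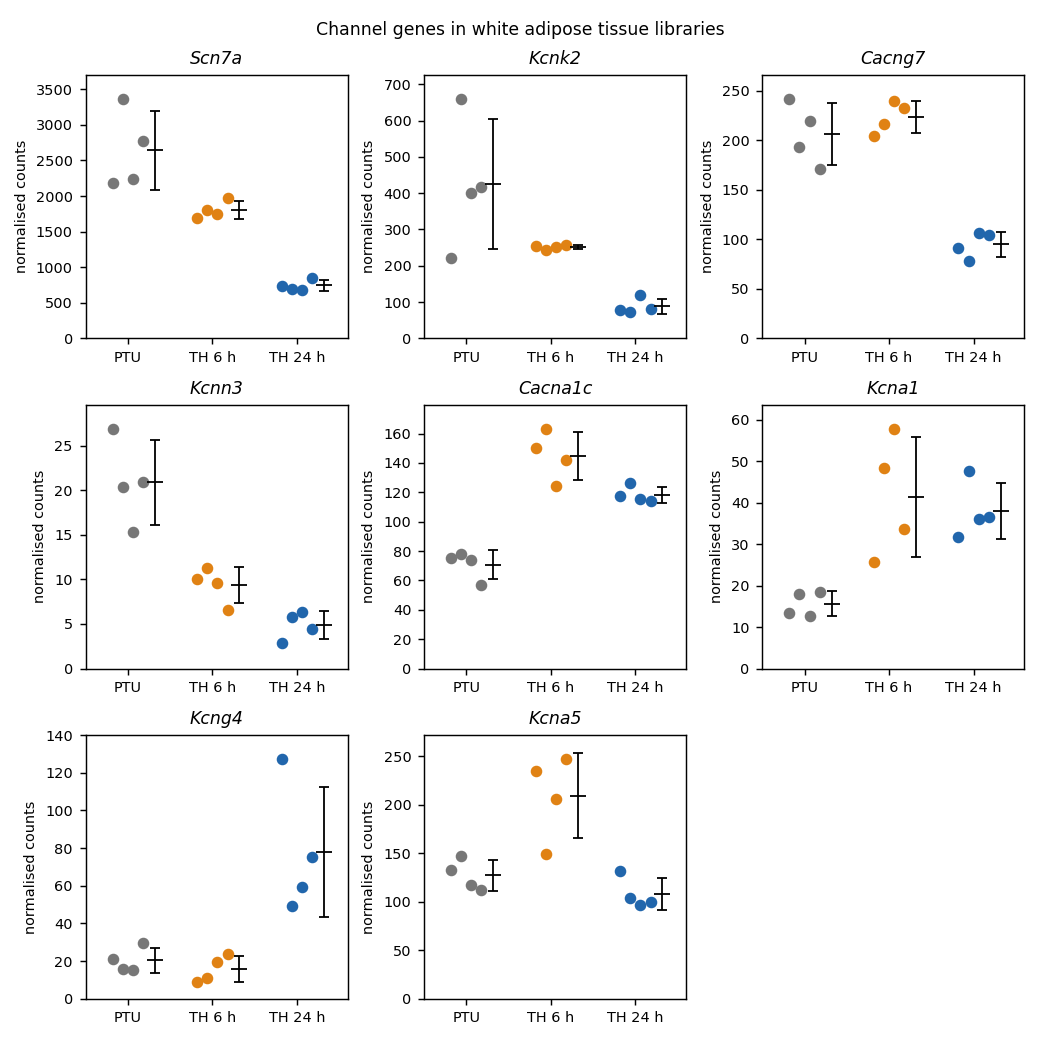
Normalised counts of 8 channel genes in each WAT library by group (PTU, TH 6 h and TH 24 h, 4 libraries each), with the group mean ± SD as a bar. Scn7a fell from 2641 in PTU to 1807 at 6 h and 743 at 24 h on average, whereas Cacna1c and Kcna1 were above PTU at both times.

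Between 24 h and 6 h in WAT, 6 members were called (9.23%), among them Kcng4 higher and Scn7a, Cacng7, Kcnk2 and Kcna5 lower, against 7.41% of all genes, 3.07% higher and 4.35% lower.

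Several WAT calls did not turn on 1 library. Scn7a, Kcnk2, Cacng7, Cacna1c, Kcng4 and Kcna1 stayed called at 24 h in all 12 fits that each left out 1 library. Kcnn3 did too, but it was inside the count limit only through PTU, where it was high. The genes tested were the same in each fit, so its calls are descriptions only. At 6 h, Cacna1c and Kcna1 stayed called in all 12, but Scn7a and Kcnn3 in 6 each, with adjusted p up to 0.085 for Scn7a without 6 h replicate 1 and 0.086 for Kcnn3 without 6 h replicate 4. Kcna5 at 6 h held in 9 of the 12, the adjusted p reaching 0.0675 without 6 h replicate 4. Kcne1l at 24 h held in 6 of the 12, with 0.0823 without PTU replicate 2.

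Markers of several cell types moved with the WAT groups. The 5 brown adipocyte markers summed to 1702 to 3186 counts in PTU, 4406 to 8868 at 6 h and 7318 to 21440 at 24 h, and the 5 adipocyte markers to 359448 to 463133, 300842 to 359539 and 224876 to 320509. The 5 Schwann cell and nerve markers, at 5147 to 7765, 6247 to 8494 and 5299 to 7896 counts, overlapped between all groups. The 6 epididymis and epithelium markers summed to 10.8 to 591 counts in PTU, 64.4 to 2719 at 6 h and 4.25 to 14.4 at 24 h, with no overlap between the TH times. The 8 skeletal muscle markers ranged from 2190 to 517554 counts in PTU, 932 to 95982 at 6 h and 38558 to 285440 at 24 h. Kcnc4, at 53.8, 2.39, 0.902 and 75.01 counts in PTU replicates 1 to 4, and Kcnj11, at 47.1, 0, 0 and 46.7, were high in PTU replicates 1 and 4, the muscle-rich libraries, and neither was called at any time. With a muscle term, 7 members were called at 6 h (6.87% of all genes), 12 at 24 h (14.8%) and 5 between the times (2.58%). The part of adipocyte, brown adipocyte, and epididymis and epithelium content in the channel changes was not tested.

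The tissues differed in the 24 h response of 5 members (7.69% of 65), 1 higher and 4 lower in WAT than in striatum, where 5.33% of 13081 genes present in both tables differed, 1.86% higher and 3.47% lower. Kcnk2 fell in WAT and had an estimate of 0.36 in striatum, a difference of -2.60 ± 0.43 (adjusted p = 0.00124). Cacng7 fell in WAT against 0.35 in striatum, a difference of -1.46 ± 0.29 (adjusted p = 0.00525). Scn2a (-1.29 ± 0.34, adjusted p = 0.0318) and Kcnn3 (-1.57 ± 0.43, adjusted p = 0.0379) were also lower in WAT relative to striatum. Kcnn3 passed the WAT count limit only through PTU, where it was high, so its difference is a description only. The striatal 24 h calls Kcnj10 (-0.53 ± 0.35, adjusted p = 0.411) and Kcnk1 (-1.02 ± 0.85, adjusted p = 0.532) did not pass this test. The 65 members had a median difference of -0.24 against -0.043 for all genes. These values include striatal TH 24 h replicate 2. There Kcnk2 had 1421 counts, against 3299, 2974 and 1935 in 24 h replicates 1, 3 and 4. Without that library, 6 members differed (9.23%), where 4.77% of all genes did. The tissues were counted in separate tables, and the labels state PTU only for the controls of each.

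**Figure D5:**
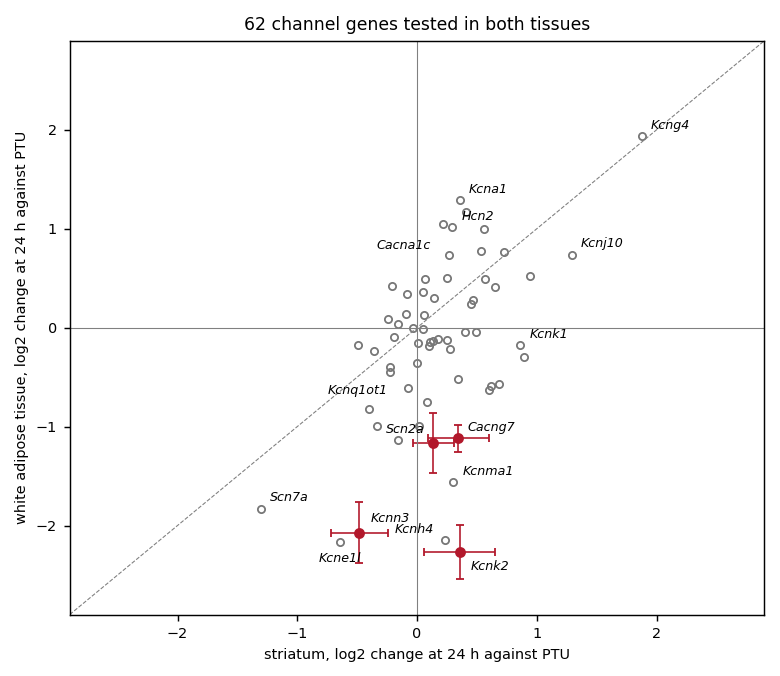
Log2 change at 24 h against PTU in striatum (horizontal) and WAT (vertical) for 62 channel genes tested in both tissues, 1 point a gene. Kcnk2, Cacng7, Scn2a and Kcnn3, whose tissue difference was called, are in red with standard errors and lie below the diagonal.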

How the data were processed

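Total RNA of striatum and WAT was sequenced from Lexogen SENSE libraries. The authors aligned reads with Bowtie2 (version 2.2.6.2 in the submitters' notes) to GRCm38 (mm10), dropped alignments of low quality and counted reads per gene with htseq-count. Annotation release and strand setting are not given in the sources used here. The deposited values are raw counts per gene in 1 table per tissue. The tables hold 14 striatum and 15 WAT gene symbols turned into dates, which took at most 0.201% and 0.0825% of a library's counts and were left out. Older WAT symbols (601) were renamed to match the striatum table, and the 13081 genes tested in both tables entered the comparison of tissues. No column of the authors' own comparisons was used.

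Counts were tested in R 4.3.3 with edgeR 4.0.16 (TMM factors, quasi-likelihood F test, two-sided, the 3 groups of a tissue in 1 fit, and all 22 libraries in 1 fit for the tissue difference). The count limit was a mean above 10 after normalisation, p-values were Benjamini-Hochberg adjusted over all genes past it, and adjusted p under 0.05 was called. DESeq2 1.42.0 was an alternative. limma 3.58.1 was loaded by edgeR. Normalised counts are counts divided by the TMM-scaled library size relative to the mean library. Positions and exon lengths come from GENCODE M21 on GRCm38, and promoter sequences from RefSeq. The steps were tested on simulated data.

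Named genes were the calls of each striatum comparison, up to 12 calls without TH 24 h replicate 2, the lowest p of each family, up to 12 WAT calls a comparison, up to 6 tissue differences and 12 channels of striatal projection neurons. Other members are named with values where a family is described. Values of some genes are not reported here, although counts include them. Members and lists were chosen with earlier results of these data known. Replicate pairs of a group differed beyond counting noise (chi-square per degree of freedom 3.72 to 96.1), so all libraries were counted separately. Alternatives were another normalisation, no filter, DESeq2, the compared groups alone, terms for library type and markers, a replicate block and leaving out each library.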

Additional observations from a re-analysis of the deposited data

Results flagged for a closer look

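Within groups of 4 libraries, 5 of the 114 groups tested held a library far from the others, and chance gives about 1 in 20 groups. In striatum at 12 h, Cacna2d3 was at 905 normalised counts in replicate 1 against 639 to 658 in the other 3 libraries. Hcn3 was at 293 in the same replicate against 344 to 352, and Kcne1l at 209.6 against 191 to 193. Kcnab3 was at 170.2 in replicate 4 at 12 h against 46.3 to 64.4. At 24 h, Cacng8 was at 189 in replicate 4 against 170.3 to 173. None of the 5 came from TH 24 h replicate 2. Cacna2d3, Hcn3 and Kcne1l shared TH 12 h replicate 1, the only 12 h library with high Xist. Its projection neuron markers summed to 37630 counts, against 24240, 23189 and 23125 in 12 h replicates 2, 3 and 4. The part of these traits in the outliers was not tested.

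The 24 h response differed between WAT and striatum, by the test of the difference itself, for 4 genes given here. WAT minus striatum, the log2 difference was -2.60 for Kcnk2, -1.46 for Cacng7, -1.29 for Scn2a and -1.57 for Kcnn3. Kcnk2 and Cacng7 held in all 22 fits that each left out 1 library, Scn2a held in 15 and Kcnn3 in 9. The difference of Kcnn3 is a description only, since it passed the WAT count limit only through PTU, where it was high.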

How the results depend on the processing

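Counts of called members moved most in striatum, where the control had 2 libraries, and are given with the share of all genes called under the same setting. At 12 h, 4 calls (0.96% of all genes) became 8 without the count filter (1.01%), 15 with DESeq2 (5.43%), 30 with the compared groups alone (9.28%), 16 with the cortical marker term (4.52%) and 1 with the library type term (0.379%), and 0 to 25 when single libraries were left out (0% to 7.95%). At 24 h, 2 calls (0.348%) became 8 with the cortical marker term (2.04%) and 0 with the groups alone (0%) or the library type term (0.019%), and 0 to 3 without single libraries (0% to 0.72%). The 0 came without either PTU library or TH 12 h replicate 3 at both times, and also without TH 24 h replicate 1 or 4 at 24 h, while leaving out TH 24 h replicate 2 gave the 25 and the 3. Between the times, 0 calls became 3 without the filter (0.134%), 7 with DESeq2 (1.65%) and 18 with the cortical marker term (5.05%), and 0 to 4 without single libraries (0% to 0.493%). In WAT, 7 calls at 6 h (7.23%) became 4 with the replicate block (4.94%) and 3 to 10 without single libraries (3.82% to 10.6%). Without single libraries, the 14 calls at 24 h ranged from 9 to 18 (10.8% to 23.8%) and the 6 calls between the times from 5 to 10 (3.66% to 11.4%), the latter reaching 11 with the groups alone (13.6%). The 5 tissue differences became 8 with DESeq2 (7.25%) and 3 with the groups alone (1.87%), and 3 to 6 without single libraries (1.65% to 8.29%). The cause was not tested.

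Of the named values, 1 changed direction, Scn2b at 24 h, whose -0.21 became 0.029 (adjusted p = 0.997) without PTU replicate 6 and ranged from -0.42 to 0.029 over single libraries left out. Each of the 65 named values was compared under several alternative settings and is counted again for each setting. The other comparisons kept their direction, 967 on the same side of the threshold, 57 newly past it and 119 no longer past it. Replicate numbers of different groups did not pair (correlations of -0.387 to 0.258 over striatum pairs and of -0.466 to 0.383 over WAT pairs). The replicate block gave 11 calls at 24 h in WAT (16.9% of members, against 12.9% of all genes). It gave 5 between the WAT times (7.69%, against 4.34%) and 0 between the times in striatum (against 0.0442%). No paired analysis was possible because PTU shares only replicate number 3 with the TH groups of striatum, nor for the tissue difference. With 2 PTU libraries of about 8844160 and 9354860 counts, a change that was not called may still be present.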

Other observations

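Partners of the channels, a list of 35 genes for proteins that anchor, traffic or modulate them together with sodium pump subunits, were read beside the members. In striatum, 31 were tested. At 12 h, 2 passed (6.45%, where 0.96% of all genes passed), both higher, among them the sodium pump beta subunit Atp1b2 (0.92 ± 0.13, adjusted p = 0.0200). At 24 h Atp1b2 passed alone (0.92 ± 0.13, adjusted p = 0.0250), where 0.348% of all genes passed. Without TH 24 h replicate 2, 8 partners passed at 12 h (25.8%, against 7.95% of all genes). Among the higher ones were Lrrc55, an auxiliary subunit of large-conductance potassium channels (1.69), Cntn2, an axonal adhesion molecule (1.18), the calcium channel adaptor Stac2 (0.98), Amigo1 (0.38) and Atp1b2. Lower were Fgf11 (-0.87), of the factors that bind sodium channels, and the calcium channel inhibitor Rem2 (-0.73). Over the 31 partners, the median change at 12 h was 0.16 against 0.0076 for all genes.

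In WAT, 21 partners were tested, of which 4 passed at 6 h (19.0%, against 7.23% of all genes) and 9 at 24 h (42.9%, against 17.1%). The ubiquitin ligase Nedd4l, which removes sodium channels from the membrane, was higher at both times (0.57 and 0.49). At 24 h, the anchor protein Ank2 (0.85) and the calcium channel inhibitor Rrad (1.29) were higher. The sodium channel factors Fgf13 (-1.79 ± 0.27, adjusted p = 0.000884), Fgf14 (-1.08) and Fgf11 (-0.89) were lower together with Lgi1 (-0.99) and its receptor gene Adam22 (-0.76). At 6 h, Lgi1 (-1.47) and Stac (-1.41) were lower. Between 24 h and 6 h, Fgf13 alone passed and was lower (-1.05), where 7.41% of all genes passed. The 24 h response of 5 of the 19 partners tested in both tissues was lower in WAT than in striatum, for Fgf13 (-1.94), Fgf14 (-1.12), Lgi1 (-0.99), Adam22 (-0.81) and Atp1b2 (-1.49), a share of 26.3% against 5.33% of all genes. All these values come from edgeR on all libraries unless stated otherwise.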
